A study of Homo sapiens with 15 samples.

Results

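The step from the low to the mid concentration of dimethylamine was examined in A549, an established line from a human adenocarcinoma of the lung that keeps traits of alveolar type II cells. The low dose group (LD) received 14.9 ppm and the mid dose group (MD) 41.1 ppm of the vapour, and both groups held 3 samples. The comparison was between the 6 LD and MD samples of 15 in the series, and the spread in its tests was estimated over all 15. It covered every panel gene that gave a product in at least 2 samples of each group, which were 284 of 296 genes. RNA was measured by quantitative RT-PCR, and expression is given as the negative ΔCT, the threshold cycle (CT) of the normalisation genes minus that of the gene. This is a log2 scale on which a higher value stands for more RNA and a difference of 1 for about 1 doubling.

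Cells of both groups were grown at the air-liquid interface, without serum from a medium change ahead of the exposure. They received the vapour from above for 1 h, followed by 23 h of recovery, 3 times within 72 h, at a flow of 3 ml/min per cm². The series text describes each sample as a biological replicate made from 2 pooled wells. All LD samples carried exposure plate number 1 and all MD samples number 5, so 1 plate number stands behind each group. The study's methods give fewer exposed cultures per plate than 3 samples of 2 pooled wells need. Whether a number stands for 1 physical plate is thus not known. Plates 1 and 5 each also held 1 clean air sample (CA, the flow without dimethylamine) and 1 non-exposed sample (NEC, no flow). The difference between plates 5 and 1 in these CA and NEC samples, which are in neither dose group, is called the control shift and is printed beside most results. The dose and the plate cannot be told apart from the LD and MD samples alone. The high dose group (HD, 81.7 ppm) was on plate 6. It is used for the step above, for the estimate of the spread in the tests and in alternative fits.

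Dimethylamine is a volatile, basic amine with irritant properties. Airway epithelium answers irritants with a few well known programmes. Damage and stress kinases release ligands of the EGF receptor, NF-kB drives chemokines that call in immune cells, the integrated stress response slows translation and induces ATF4, and p53 governs cell cycle arrest. Lung epithelial cells such as A549 also transcribe genes best known from the liver, among them alcohol dehydrogenases, complement factors and coagulation proteins. Most panel genes had been selected by the study for a change at the high dose in other assays of identical RNA, so counts over the panel are not those of unselected genes.

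Between 282 and 286 genes gave a product per LD or MD sample. Across genes, Pearson's r between samples was 0.983 to 0.993 within LD and 0.991 to 0.995 within MD, and no pair held identical values. The epithelial genes KRT18 (a keratin, CT 18.9 to 19.6) and CDH1 (E-cadherin, CT 23.7 to 24.3) were measured early in all 6 samples. No fibroblast or endothelial marker of the lists was on the panel. The B-cell receptor gene CD79A, the single leukocyte marker on the panel, gave CTs from 23.1 to 24.2 and rose from LD to MD by 0.67 ± 0.15 (adjusted p = 0.0076). TPPP3 and CFAP53, both known from ciliated cells, gave CTs from 29.3 to 32.7. The study's methods name A549 as the only cells exposed, and a part of other cell types in the results was not tested. The normalisation gene GPN1 gave CTs of 25.57, 25.34 and 25.27 in LD and 25.20, 25.34 and 25.43 in MD, and TMEM184C gave 24.43, 24.40 and 24.37 in LD and 24.26, 24.47 and 24.57 in MD. The ranges of the groups overlapped for both. On the normalised scale the values of the pair mirror each other by construction (0.05 ± 0.09 and -0.05 ± 0.09), which leaves a change shared by both unseen.

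With 1 mean per group, 98 of 284 genes (34.5%) passed an adjusted p under 0.05 between MD and LD (limma), 69 of them higher at MD (24.3%) and 29 lower (10.2%). These shares are the background for the member counts of the gene groups below. Genes higher at MD included CCL20, GDF15, PHLDA1, DUSP6, TUBA4A, LAMA3 and EMP3. Genes lower at MD included FN1, C4BPA, CFB, ADH4, ADH6 and BAAT. Of the calls, 31 rises and 18 falls exceeded 1.5-fold, whereas 6 rises and 3 falls exceeded 2-fold. In 149 of 284 genes (52.5%) the 3 MD samples did not overlap the 3 LD samples, with MD above LD in 107 and below in 42. A lack of overlap, given below for many genes, was thus common on this panel. The median difference over all 284 genes was 0.19 rather than 0. Scaled to the mean of the whole panel in place of the normalisation genes, the median was 0.05 and the calls split into 48 higher and 45 lower, so small changes stand beside an offset of this size.

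The plates of the 2 groups differed in the controls as well. In the 4 CA and NEC samples of plates 1 and 5, tested with those of plate 6, 52 of 282 genes (18.4%) passed an adjusted p under 0.05 between plate 5 and plate 1 (limma), with a median control shift of 0.12. Across 282 genes, the difference between MD and LD and the control shift had a Pearson's r of 0.50 and a Spearman's rho of 0.47, as a description over genes, which are not independent. The control shift had the sign of the dose difference in 64 of the 69 genes higher at MD and in 20 of the 29 lower genes. It passed the test itself in 13 and 9 of them. With the plate as a term in the fit, 1 of 284 genes (0.352%) passed, CD302, and 47 genes had an unadjusted p under 0.05, of which 27 were among the 98 called without the term. The median SE rose from 0.16 to 0.22 with the term, since the plate difference rests on 2 controls per plate. Of the 98 genes, 96 kept the sign of their difference, and the exceptions were DUSP6 and NRCAM. The median difference went from 0.56 to 0.30 over the 69 higher genes and from -0.65 to -0.47 over the 29 lower genes.

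**Figure D1:**
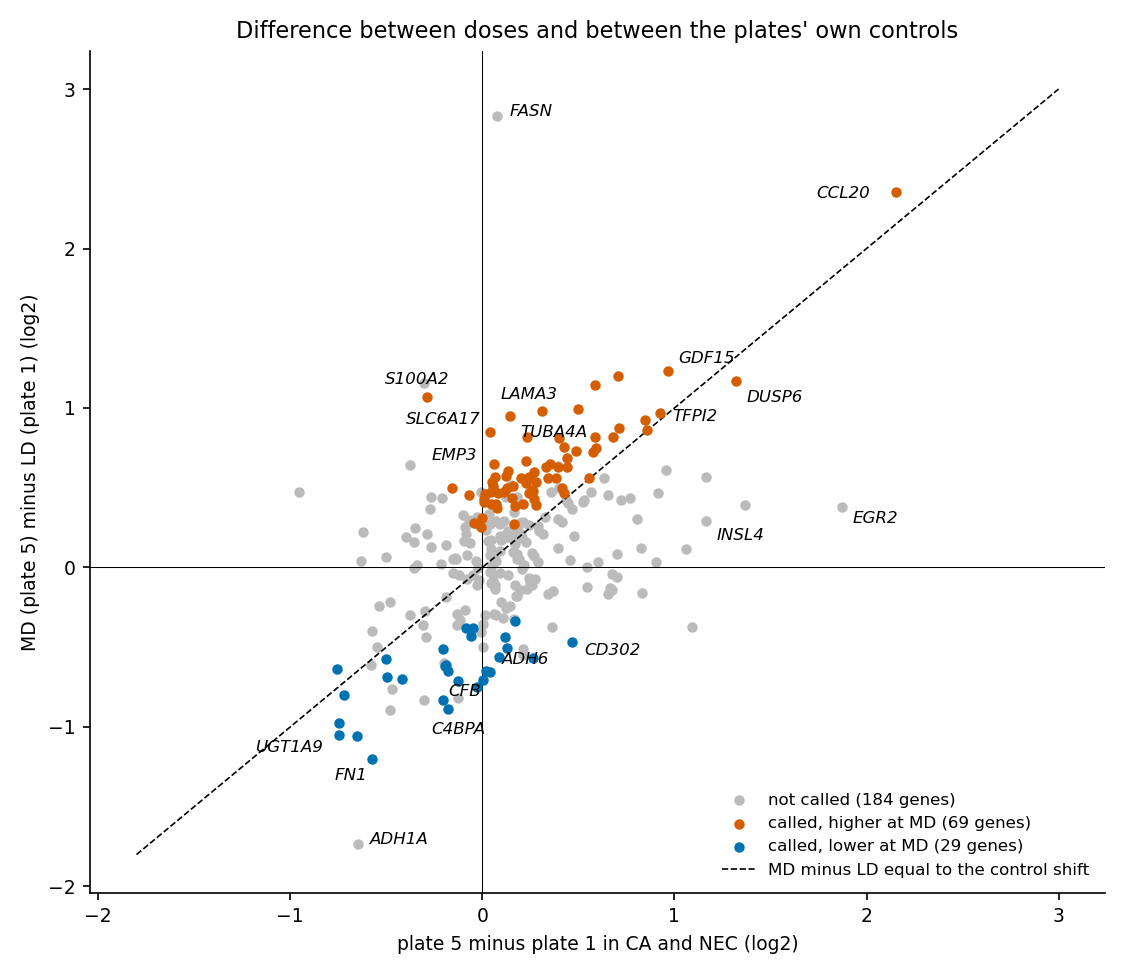
Each point is 1 of 282 panel genes, with the control shift (plate 5 minus plate 1 in CA and NEC, log2) on the horizontal axis and MD minus LD (log2) on the vertical axis. CCL20, GDF15, TFPI2 and DUSP6 lie near the dashed line of equal differences, whereas TUBA4A, EMP3, SLC6A17, ADH6 and CFB lie near a control shift of 0.

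Epidermal growth factor receptor (EGFR) ligands and genes of the MAPK response formed the group with the highest median, 0.82 over 7 tested genes, of which 4 rose and none fell. The control shift of these genes had a median of 0.71, and with the plate as a term their median was 0.13. PHLDA1, an early response gene of growth factor signalling, measured 0.56, 0.85 and 0.90 in LD and 1.79, 1.99 and 2.13 in MD. All MD samples lay above all LD samples. PHLDA1 rose by 1.20 ± 0.21 (adjusted p = 0.0035, limma), with a control shift of 0.71 and a difference of 0.49 ± 0.21 with the plate as a term (adjusted p = 0.26). DUSP6, the phosphatase that dampens ERK, measured -0.30, -0.07 and 0.14 in LD and 0.93, 1.14 and 1.20 in MD. The groups did not overlap, and DUSP6 rose by 1.17 ± 0.34 (adjusted p = 0.019). The CA sample of plate 5 exceeded that of plate 1 by 1.12 and the NEC sample by 1.52, and the difference in DUSP6 turned to -0.15 ± 0.22 with the plate as a term.

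The EGFR ligands amphiregulin and epiregulin moved alike. AREG measured -0.18, -0.28 and 0.17 in LD and 0.46, 0.68 and 1.03 in MD, and rose by 0.82 ± 0.22 (adjusted p = 0.012). EREG rose by 0.82 ± 0.23 (adjusted p = 0.015). Both groups of samples stood apart for each ligand, but the control shifts were 0.59 for AREG and 0.68 for EREG, and 0.23 ± 0.28 and 0.13 ± 0.26 were left with the plate as a term. The calls of DUSP6 and EREG were lost without LD replicate 1, LD replicate 2 or MD replicate 3, and that of AREG without LD replicate 2 or MD replicate 3. HMGA1, a chromatin protein, differed by 0.25 ± 0.24 and EMP1, an epithelial membrane protein, by 0.43 ± 0.23, and neither passed.

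In the NF-kB group, 4 of 6 tested genes rose and 1 fell, with a median of 0.48 beside a control shift of 0.42. CCL20, a chemokine for dendritic cells and lymphocytes, showed the largest called rise on the panel. It measured -4.59, -4.69 and -4.10 in LD and -2.79, -1.81 and -1.71 in MD. All MD samples were above all LD samples, by 2.36 ± 0.59 on average, a 5.12-fold difference (adjusted p = 0.011). The CA sample measured -4.58 on plate 1 and -2.74 on plate 5, and the NEC sample -5.08 and -2.61. MD thus lay 0.64 above the CA sample of its own plate and LD 0.12 above that of its plate, and 0.20 ± 0.49 remained with the plate as a term. NFKB2, the precursor of an NF-kB subunit, rose by 0.92 ± 0.25 (adjusted p = 0.013), with 0.08 ± 0.27 under the plate term, and was not called without MD replicate 3. BIRC3, an inhibitor of apoptosis, and the neutrophil chemokine CXCL5 rose by 0.50 ± 0.16 and 0.47 ± 0.15, with control shifts of 0.42 each. BIRC3 lost its call without any 1 of the 6 samples and CXCL5 without 5 of them, and 2 genes of the group were higher with panel mean scaling.

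The gene of this group that fell behaved otherwise with regard to the plates. IL33, an alarmin cytokine of epithelia, measured 0.77, 0.29 and -0.37 in LD and -0.59, -0.55 and -0.40 in MD. The LD samples were spread widely and the lowest of them lay next to the highest MD sample. IL33 fell by 0.75 ± 0.21 (adjusted p = 0.018), and by 0.72 ± 0.36 with the plate as a term (adjusted p = 0.30). The control shift of IL33 was -0.03. The call was lost without LD replicate 1 or LD replicate 2. The receptor of IL33, IL1RL1, was not testable, because a product was found in 1 LD sample (CT 31.9) and in 2 MD samples (CT 31.6 and 29.6).

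**Figure D2:**
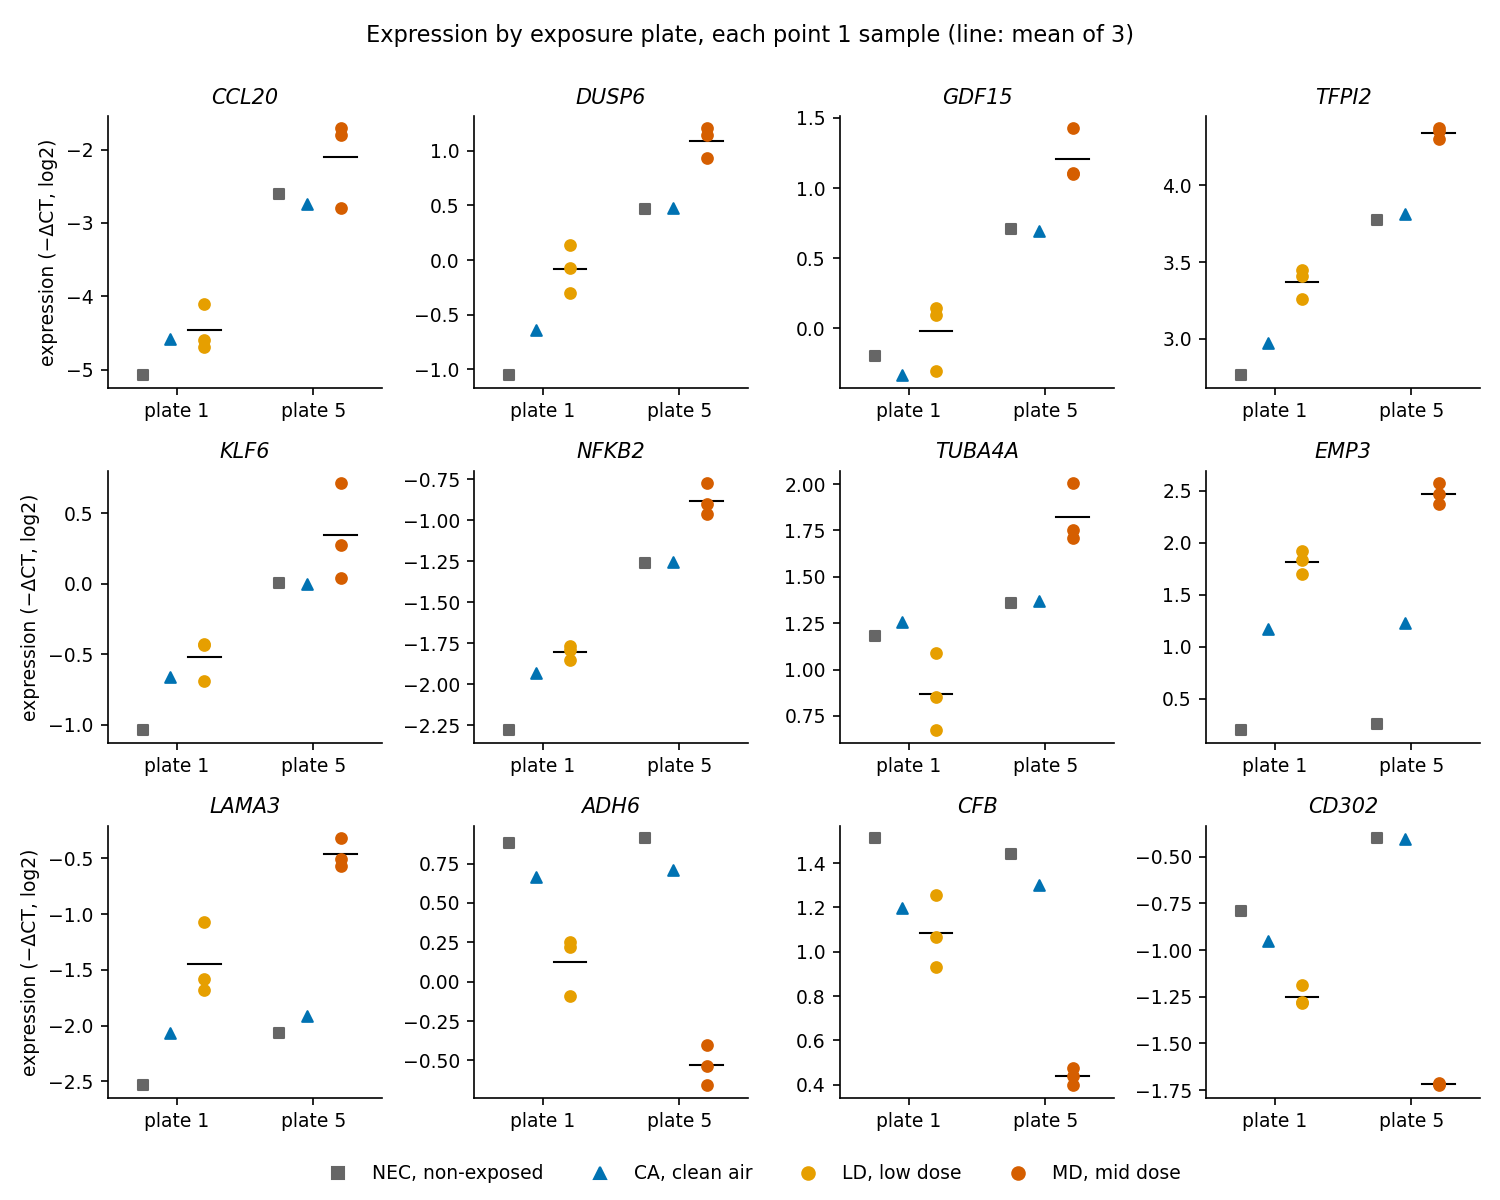
Expression (−ΔCT, log2) of 12 genes on plate 1 (LD) and plate 5 (MD), each point being 1 sample, with the non-exposed (squares) and clean air (triangles) samples of the same plate beside the dose samples and a line at the mean of 3. In CCL20, DUSP6, GDF15, TFPI2, KLF6 and NFKB2 the controls rise from plate 1 to plate 5 along with the dose samples, whereas in EMP3, ADH6 and CFB controls of the same kind lie close together on both plates, although the CA samples of EMP3 lie well above its NEC samples.

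Further genes of inflammation and tissue response had control shifts near their dose difference. TFPI2, an inhibitor of serine proteases, measured 3.41, 3.26 and 3.45 in LD and 4.30, 4.35 and 4.37 in MD, with no overlap. It rose by 0.97 ± 0.25 (adjusted p = 0.012), next to a control shift of 0.93. The zinc finger regulator KLF6 rose by 0.86 ± 0.26 (adjusted p = 0.025), and its control shift was 0.86 as well. TNFRSF12A, the receptor of the cytokine TWEAK, rose by 0.88 ± 0.22 (adjusted p = 0.011), with a control shift of 0.71. KLF6 lost its call without LD replicate 2, LD replicate 3 or MD replicate 3, whereas TFPI2 and TNFRSF12A were called without any 1 sample.

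Of the integrated stress response, 2 of 4 tested genes rose, with a median of 0.74 and a median control shift of 0.46. CHAC1, which degrades glutathione downstream of ATF4, measured -3.55, -3.92 and -3.40 in LD and -2.76, -2.77 and -2.37 in MD. The groups stood apart, and CHAC1 rose by 0.99 ± 0.21 (adjusted p = 0.0064). Its CA samples differed by 0.16 between the plates and its NEC samples by 0.83, and 0.50 ± 0.28 was left with the plate as a term. GDF15, a secreted stress cytokine, measured -0.31, 0.15 and 0.10 in LD and 1.11, 1.10 and 1.43 in MD and rose by 1.23 ± 0.27 (adjusted p = 0.0073). All MD samples were higher, but the control shift was 0.97 and 0.26 ± 0.21 remained. DDIT3 (the transcription factor CHOP) and PPP1R15A (a phosphatase subunit that restores translation) differed by 0.42 ± 0.24 and 0.50 ± 0.22, did not pass here, and rose by 1.68 and 1.13 from MD to HD.

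Among p53 targets 4 of 5 tested genes rose, with a median of 0.63 beside a control shift of 0.42. MDM2, the ligase that degrades p53, measured 1.92, 1.69 and 2.11 in LD and 2.63, 2.45 and 2.54 in MD. MDM2 rose by 0.63 ± 0.15 (adjusted p = 0.0085), all MD samples being higher. GADD45A, a regulator of growth arrest, rose by 0.75 ± 0.17, the phosphatase PPM1D by 0.51 ± 0.13 and the nuclease AEN by 0.63 ± 0.18. Differences with the plate as a term were 0.30 for MDM2, 0.33 for GADD45A, 0.36 for PPM1D and 0.19 for AEN, and none passed. Without MD replicate 3, PPM1D and AEN were no longer called, and AEN was also lost without LD replicate 2.

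In cholesterol synthesis and sterol handling 4 of 9 tested genes rose (24.3% over the panel) and none fell (10.2%), with a median of 0.43. The synthesis enzymes among them share control by the SREBP transcription factors. These act together with NF-Y, the factor that binds CCAAT boxes. FDPS, which makes farnesyl diphosphate, measured 2.74, 2.63 and 2.63 in LD and 3.16, 3.26 and 3.26 in MD. It rose by 0.56 ± 0.13 (adjusted p = 0.0087). EBP, a sterol isomerase, rose by 0.63 ± 0.13 and MVD, which decarboxylates mevalonate diphosphate, by 0.69 ± 0.18. No MD sample overlapped LD in these 3 enzymes, as in 52.5% of all 284 genes. NPC1, which exports cholesterol from lysosomes, rose by 0.82 ± 0.19 (adjusted p = 0.0085). With the plate as a term 0.22, 0.24, 0.24 and 0.59 were left for FDPS, EBP, MVD and NPC1. The other 5 members, among them CYP51A1 and IDI1, differed by 0.19 to 0.43 without passing, and the median control shift of the 9 genes was 0.33.

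The promoters of FDPS, MVD and EBP are shown because these are the synthesis enzymes of the list that rose. Each run covers 250 bases before to 50 bases after the RefSeq gene start (GRCh38.p14), 5′ to 3′ on the strand of the gene, and capitals mark CCAAT on either strand (ATTGG on the other). They lie at chr1:155308616-155308915 (plus strand) for FDPS, chr16:88663042-88663341 (minus strand) for MVD and chrX:48521558-48521857 (plus strand) for EBP.
FDPS: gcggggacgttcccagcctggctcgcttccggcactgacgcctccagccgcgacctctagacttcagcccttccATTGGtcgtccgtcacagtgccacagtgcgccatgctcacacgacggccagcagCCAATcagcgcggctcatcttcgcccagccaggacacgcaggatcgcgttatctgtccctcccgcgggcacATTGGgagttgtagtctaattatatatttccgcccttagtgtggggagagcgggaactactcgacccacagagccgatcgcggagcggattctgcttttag
MVD: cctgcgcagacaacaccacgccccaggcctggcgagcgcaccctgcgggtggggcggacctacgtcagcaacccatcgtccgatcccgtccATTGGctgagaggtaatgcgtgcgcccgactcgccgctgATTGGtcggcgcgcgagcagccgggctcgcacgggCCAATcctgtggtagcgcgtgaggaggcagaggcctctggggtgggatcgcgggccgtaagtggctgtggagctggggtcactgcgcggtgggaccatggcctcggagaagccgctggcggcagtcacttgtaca
EBP: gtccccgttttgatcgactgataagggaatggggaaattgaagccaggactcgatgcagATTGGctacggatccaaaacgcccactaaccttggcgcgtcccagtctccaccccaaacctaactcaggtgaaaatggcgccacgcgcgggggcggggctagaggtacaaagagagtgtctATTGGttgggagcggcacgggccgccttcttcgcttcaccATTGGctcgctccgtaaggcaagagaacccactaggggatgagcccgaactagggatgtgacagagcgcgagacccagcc
Each of the 3 holds 3 boxes. Of 35116 RefSeq promoters of this length, 34.6% hold at least 1 and 3.26% at least 3. Of 8 promoters found for the 9 sterol genes, 6 had a box. These promoters were few and chosen with results known, so the counts are a description, and a match of letters is not a measured site.

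Lipid genes next to this group moved in the same direction. ACSS2, which makes acetyl-CoA from acetate, measured 2.45, 2.40 and 2.47 in LD and 3.06, 3.11 and 3.33 in MD and rose by 0.73 ± 0.17 (adjusted p = 0.0085). FABP5, a fatty acid carrier, rose by 0.48 ± 0.12 and the desaturase SCD by 0.43 ± 0.13. The control shift was 0.49 for ACSS2, 0.26 for FABP5 and 0.27 for SCD, and SCD was not called without LD replicate 2, LD replicate 3 or MD replicate 3. Fatty acid synthase, FASN, had the largest difference of all genes, 2.83 ± 1.21 (adjusted p = 0.085), and did not pass. It measured -3.11, 3.36 and 3.49 in LD and 4.02, 4.04 and 4.18 in MD, so that the size rests on 1 LD well with a CT of 28.1 where the other two had 21.5 and 21.3.

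Alcohol dehydrogenases, which oxidise ethanol and retinol, had the lowest median of the groups, -0.70 over 5 tested genes, of which 3 fell and none rose. Their median was -0.69 with the plate as a term. ADH6 measured 0.25, 0.22 and -0.09 in LD and -0.40, -0.53 and -0.66 in MD. Every MD sample was below every LD sample, and ADH6 fell by 0.66 ± 0.12 (adjusted p = 0.0038). The CA sample measured 0.66 on plate 1 and 0.71 on plate 5, and the NEC sample 0.88 and 0.91, so the fall was 0.69 ± 0.19 with the plate as a term (adjusted p = 0.095).

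ADH4 measured -1.23, -1.28 and -1.73 in LD and -1.90, -2.25 and -2.21 in MD. The groups did not overlap, and ADH4 fell by 0.70 ± 0.15 (adjusted p = 0.0067), or by 0.71 ± 0.25 with the plate as a term. Its CA sample measured -1.14 on both plates. ADH1C fell by 0.65 ± 0.19 (adjusted p = 0.018), a call that was lost without LD replicate 1, LD replicate 2 or MD replicate 3. ADH1B differed by -0.82 ± 0.32 and ADH1A by -1.73 ± 0.75, and neither passed. ADH1A was measured late, with CTs of 31.5, 34.8 and 36.3 in MD, of which the last had been set to 35 by the authors.

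Complement genes followed, with 4 of 8 tested genes lower and none higher, a median of -0.38 and a median control shift of -0.06. C4BPA, a chain of the protein that restrains the classical pathway, measured -0.23, -0.35 and -0.42 in LD and -1.44, -1.04 and -1.18 in MD. It fell by 0.89 ± 0.14, a 1.85-fold difference (adjusted p = 0.002), with clearly separated groups. With the plate as a term the fall was 0.71 ± 0.22 (adjusted p = 0.14). CFB, factor B of the alternative pathway, measured 1.26, 1.07 and 0.93 in LD and 0.40, 0.48 and 0.44 in MD. No MD sample reached LD, and CFB fell by 0.65 ± 0.12 (adjusted p = 0.0041), next to 0.66 ± 0.20 with the plate as a term. C5 fell by 0.51 ± 0.16 and the regulator CFI by 0.34 ± 0.12, with control shifts of -0.20 and 0.17. Both of these calls were lost without LD replicate 1, LD replicate 2, MD replicate 2 or MD replicate 3, and that of CFI also without MD replicate 1. C4BPA and CFB were called in each fit with 1 sample left out.

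The fibrinogen chains showed the reverse relation to the plates. FGA, FGB and FGG encode the 3 chains of the clotting protein, and they differed between MD and LD by 0.12 ± 0.26, -0.06 ± 0.22 and 0.03 ± 0.26, far from the threshold. FGG measured 5.52, 5.50 and 4.97 in LD and 5.38, 5.34 and 5.37 in MD, with overlapping groups. In the controls the chains were higher on plate 5 by 0.83, 0.70 and 0.91. With the plate as a term the differences were -0.71 ± 0.22, -0.76 ± 0.22 and -0.87 ± 0.21, with adjusted p from 0.058 to 0.15. INSL4, a placental peptide hormone, was similar, with 0.29 ± 0.31 between the doses, a control shift of 1.16 and -0.87 ± 0.20 with the plate as a term (adjusted p = 0.058). The clotting cofactor F5 fell by 0.62 ± 0.12 (adjusted p = 0.0053), beside a control shift of -0.19.

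CD302, a C-type lectin receptor of adhesion and migration, was the gene called with the plate as a term. It measured -1.28, -1.28 and -1.19 in LD and -1.72, -1.71 and -1.72 in MD. The samples of a group were nearly equal and the groups stood apart, and CD302 fell by 0.47 ± 0.15 (adjusted p = 0.028). Its controls went the other way, with the CA sample at -0.95 on plate 1 and -0.40 on plate 5 and the NEC sample at -0.79 and -0.40. With the plate as a term the fall was 0.94 ± 0.15 (adjusted p = 0.018). Neither call was stable to the samples used. Without the plate term CD302 was not called when any 1 of the 6 samples was left out (highest adjusted p for CD302 0.0755), and with the plate term no gene was called without MD replicate 3.

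Transport and bile acid genes contained 5 falls and 2 rises among 14 tested, beside shares of 10.2% and 24.3% over the panel. BAAT, which joins bile acids to glycine or taurine, measured -1.83, -1.85 and -2.20 in LD and -2.75, -2.71 and -2.55 in MD. It fell by 0.71 ± 0.14 (adjusted p = 0.0041), all MD samples being lower, and by 0.59 ± 0.19 with the plate as a term. PDZK1, a scaffold of membrane transporters, fell by 0.61 ± 0.11 and the vitamin C transporter SLC23A1 by 0.50 ± 0.13, with control shifts of -0.19 and 0.13. SLC17A3 and SLC17A4, carriers of organic anions, fell by 0.44 ± 0.16 and 0.56 ± 0.20, with control shifts of 0.12 and 0.09, and both lost the call without 4 of the 6 samples in turn. The amino acid transporters SLC6A17 and SLC6A15 rose by 0.85 ± 0.21 and 0.61 ± 0.13. SLC6A17 measured -4.27, -3.74 and -3.95 in LD and -3.22, -3.28 and -2.89 in MD, and 0.81 ± 0.32 remained with the plate as a term, although its CA samples differed by 0.54 and its NEC samples by -0.46 between the plates.

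**Figure D3:**
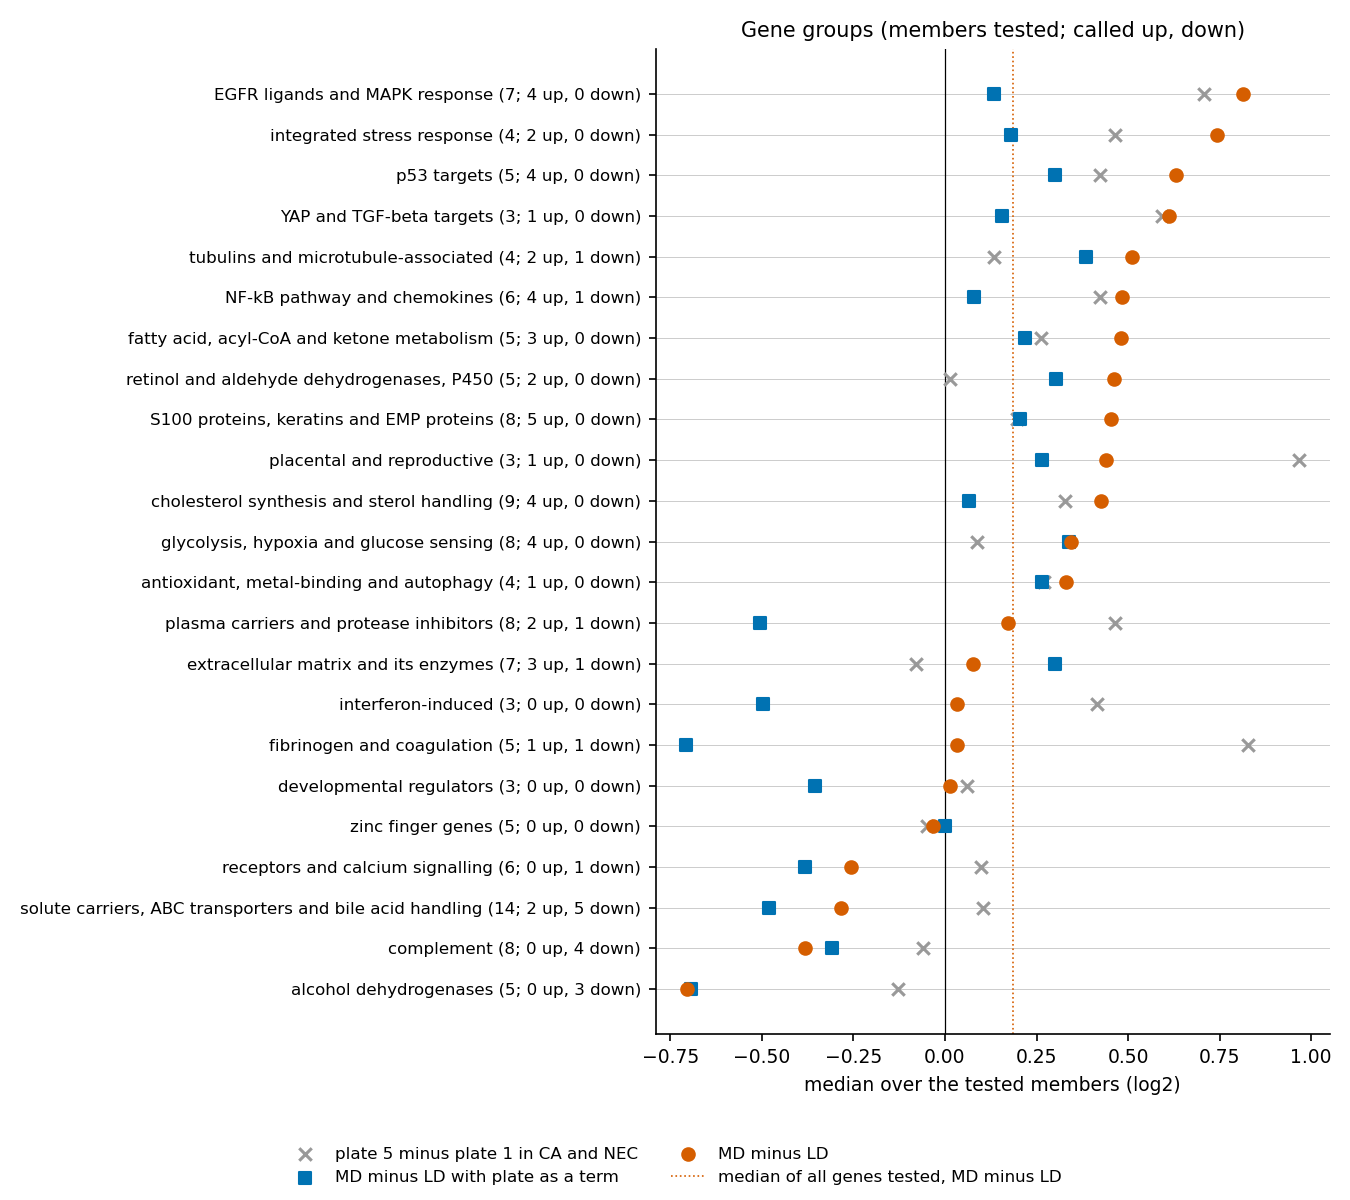
Medians over the tested members (log2) of the gene groups with at least 3 tested members, for MD minus LD (circles), for the same difference with the plate as a term (squares) and for the control shift (crosses). The groups are ordered by MD minus LD, the labels give the members tested and called up or down, and the dotted line is the median of all genes, 0.19.

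Tubulins had small control shifts. TUBA4A, an alpha-tubulin, measured 1.09, 0.67 and 0.85 in LD and 1.75, 1.71 and 2.00 in MD. The groups were well apart, and TUBA4A rose by 0.95 ± 0.12, a 1.93-fold difference with the smallest adjusted p of all genes (0.0011). With the plate as a term the rise was 0.81 ± 0.19 (adjusted p = 0.058), next to a control shift of 0.14. TUBA1C measured 5.31, 5.19 and 5.22 in LD and 5.79, 5.66 and 6.00 in MD and rose by 0.58 ± 0.10 (adjusted p = 0.0035). TPPP3, which bundles microtubules, fell by 0.57 ± 0.19, and by 0.83 ± 0.31 with the plate as a term, but was not called without 4 of the 6 samples in turn. DCLK1, a microtubule-associated kinase, differed by 0.44 ± 0.24 and did not pass.

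Among S100, keratin and epithelial membrane protein genes 5 of 8 tested genes rose, with a median of 0.45 and a control shift of 0.20, and 2 rose with panel mean scaling. EMP3, a tetraspan membrane protein, measured 1.84, 1.70 and 1.92 in LD and 2.57, 2.46 and 2.37 in MD. Every MD sample exceeded every LD sample, and EMP3 rose by 0.65 ± 0.09 (adjusted p = 0.0014). Both kinds of control differed by only 0.06 between the plates, and the rise was 0.59 ± 0.15 with the plate as a term (adjusted p = 0.064). S100A2, a calcium-binding protein, was measured late and spread widely, at -6.44, -5.99 and -5.76 in LD and -4.20, -5.05 and -5.73 in MD. The lowest MD sample lay just above the highest LD sample, and S100A2 rose by 1.07 ± 0.34 (adjusted p = 0.027), beside a control shift of -0.29. S100A6 rose by 0.56 ± 0.20 and S100A11 by 0.40 ± 0.13, with control shifts of 0.55 and 0.21, and KRT18 rose by 0.47 ± 0.11, with a control shift of 0.24. The calls of the 3 S100 genes were lost without at least 4 of the 6 samples in turn.

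Genes of the matrix moved in both directions, with 3 rises and 1 fall among 7 tested (2 and 1 with panel mean scaling). Over the panel, 24.3% rose and 10.2% fell. Fibronectin, FN1, the main adhesive glycoprotein of the matrix, showed the largest called fall. It measured 4.07, 4.03 and 3.98 in LD and 2.80, 3.01 and 2.66 in MD. The groups were far apart, and FN1 fell by 1.20 ± 0.19, a 2.29-fold difference (adjusted p = 0.002). FN1 was also lower on plate 5 in CA (by 0.52) and in NEC (by 0.63), and with the plate as a term it fell by 0.62 ± 0.16 (adjusted p = 0.084). LAMA3, a laminin chain of the basement membrane, measured -1.58, -1.68 and -1.07 in LD and -0.50, -0.57 and -0.32 in MD. LAMA3 rose by 0.98 ± 0.19 (adjusted p = 0.0041), with all MD samples higher, and 0.67 ± 0.25 was left with the plate as a term. LOXL2, which cross-links collagen, rose by 0.81 ± 0.20, a call lost without MD replicate 3, beside a control shift of 0.40. The hemidesmosomal collagen COL17A1 rose by 0.43 ± 0.14 (control shift 0.16), a call lost without LD replicate 2, MD replicate 1 or MD replicate 3. The junction genes CDH1 and CLDN2 fell by 0.43 ± 0.11 and 0.38 ± 0.10, with control shifts of -0.06 and -0.05. CDH1 was not called without MD replicate 2, and CLDN2 without LD replicate 2 or MD replicate 3.

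Genes of glycolysis, hypoxia and glucose sensing gave 4 rises among 8 tested (24.3% over the panel), and 2 rises and 1 fall with panel mean scaling. The rises were PFKP, ALDOC, LDHA and LOXL2, the last of which is also counted with the matrix. PFKP, the platelet form of phosphofructokinase, measured 2.08, 1.90 and 1.94 in LD and 2.38, 2.43 and 2.80 in MD, without overlap. It rose by 0.57 ± 0.13 (adjusted p = 0.0073), and by 0.50 ± 0.19 with the plate as a term. ALDOC and LDHA, an aldolase and a lactate dehydrogenase, rose by 0.48 ± 0.15 and 0.39 ± 0.12, with control shifts of 0.11 and 0.17, and both calls were lost without LD replicate 3 or MD replicate 3, as well as without other samples. SQSTM1, the autophagy receptor p62, rose by 0.60 ± 0.13, and CYP24A1 and CYP1B1, cytochromes of vitamin D and of xenobiotic metabolism, by 0.53 ± 0.12 and 0.46 ± 0.13. The control shift was 0.27 for SQSTM1, 0.23 for CYP24A1 and 0.01 for CYP1B1, where CA (-0.31) and NEC (0.33) opposed each other, and its call was lost without LD replicate 2 or MD replicate 3.

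Of further falls, IQGAP2 and NRCAM had control shifts close to the fall, whereas those of UGT1A9 and OR51E1 were smaller than it. UGT1A9, a glucuronosyltransferase, measured -3.48, -3.90 and -3.88 in LD and -4.78, -4.69 and -4.94 in MD and fell by 1.05 ± 0.27 (adjusted p = 0.012), beside a control shift of -0.75. OR51E1, an olfactory-type receptor, fell by 1.06 ± 0.22 with a control shift of -0.65. IQGAP2, a scaffold of the cytoskeleton, fell by 0.80 ± 0.21 with a control shift of -0.72. The adhesion molecule NRCAM fell by 0.63 ± 0.22, and with the plate as a term its difference was 0.12 ± 0.18. The samples of the groups did not overlap in any of these genes, and NRCAM lost its call whichever of the 6 samples was left out, whereas UGT1A9, OR51E1 and IQGAP2 kept theirs.

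No member passed in 4 groups. The zinc finger genes named ZNF or ZFP, a list that does not hold KLF6, had a median of -0.03 over 5 tested, the developmental regulators one of 0.01 over 3, and the interferon-induced genes one of 0.03 over 3, all below the panel median of 0.19 and negative with panel mean scaling. The circadian repressors BHLHE41 and NR1D1 differed by 0.04 ± 0.33 and 0.64 ± 0.32. IFI6, an antiviral gene induced by interferon, measured 0.71, 1.54 and 0.95 in LD and 1.05, 0.78 and -0.12 in MD, so the samples of each group were widely spread and overlapped.

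Some genes had wells without product. AMHR2, the receptor of anti-Müllerian hormone, was found in 1 LD sample (CT 34.6) and in all MD samples (CT 33.3, 33.1 and 33.6), and in none of the CA or NEC samples. It could not be tested against LD. The immediate early gene EGR2 lacked a product in LD replicate 3 and did not pass, with a difference of 0.38 ± 0.62. IL1RL1 is given above.

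The step above, from MD to HD, changed 58 of 286 genes (20.3%), of which 56 could be tested between MD and LD. Of the 98 genes called between MD and LD, 13 were called again in the same direction and 1 in the opposite direction. Together these are a smaller share of the 98 than the 20.3% over all genes tested. ADH4 and ADH6 fell further by 0.66 and 0.49, OR51E1 by 0.82 and SLC23A1 by 0.43. AREG, S100A2, AEN and TUBA1C rose further by 0.74, 1.27, 0.59 and 0.39. APEX2, a DNA repair nuclease, reversed. It measured -2.39, -2.32 and -2.45 in LD and -2.06, -1.94 and -1.93 in MD, rose by 0.41 ± 0.11 and fell by 0.39 ± 0.11 from MD to HD. HD came from another plate again, both comparisons contain the MD samples, and 11 genes were called between HD and MD with the plate as a term.

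**Figure D4:**
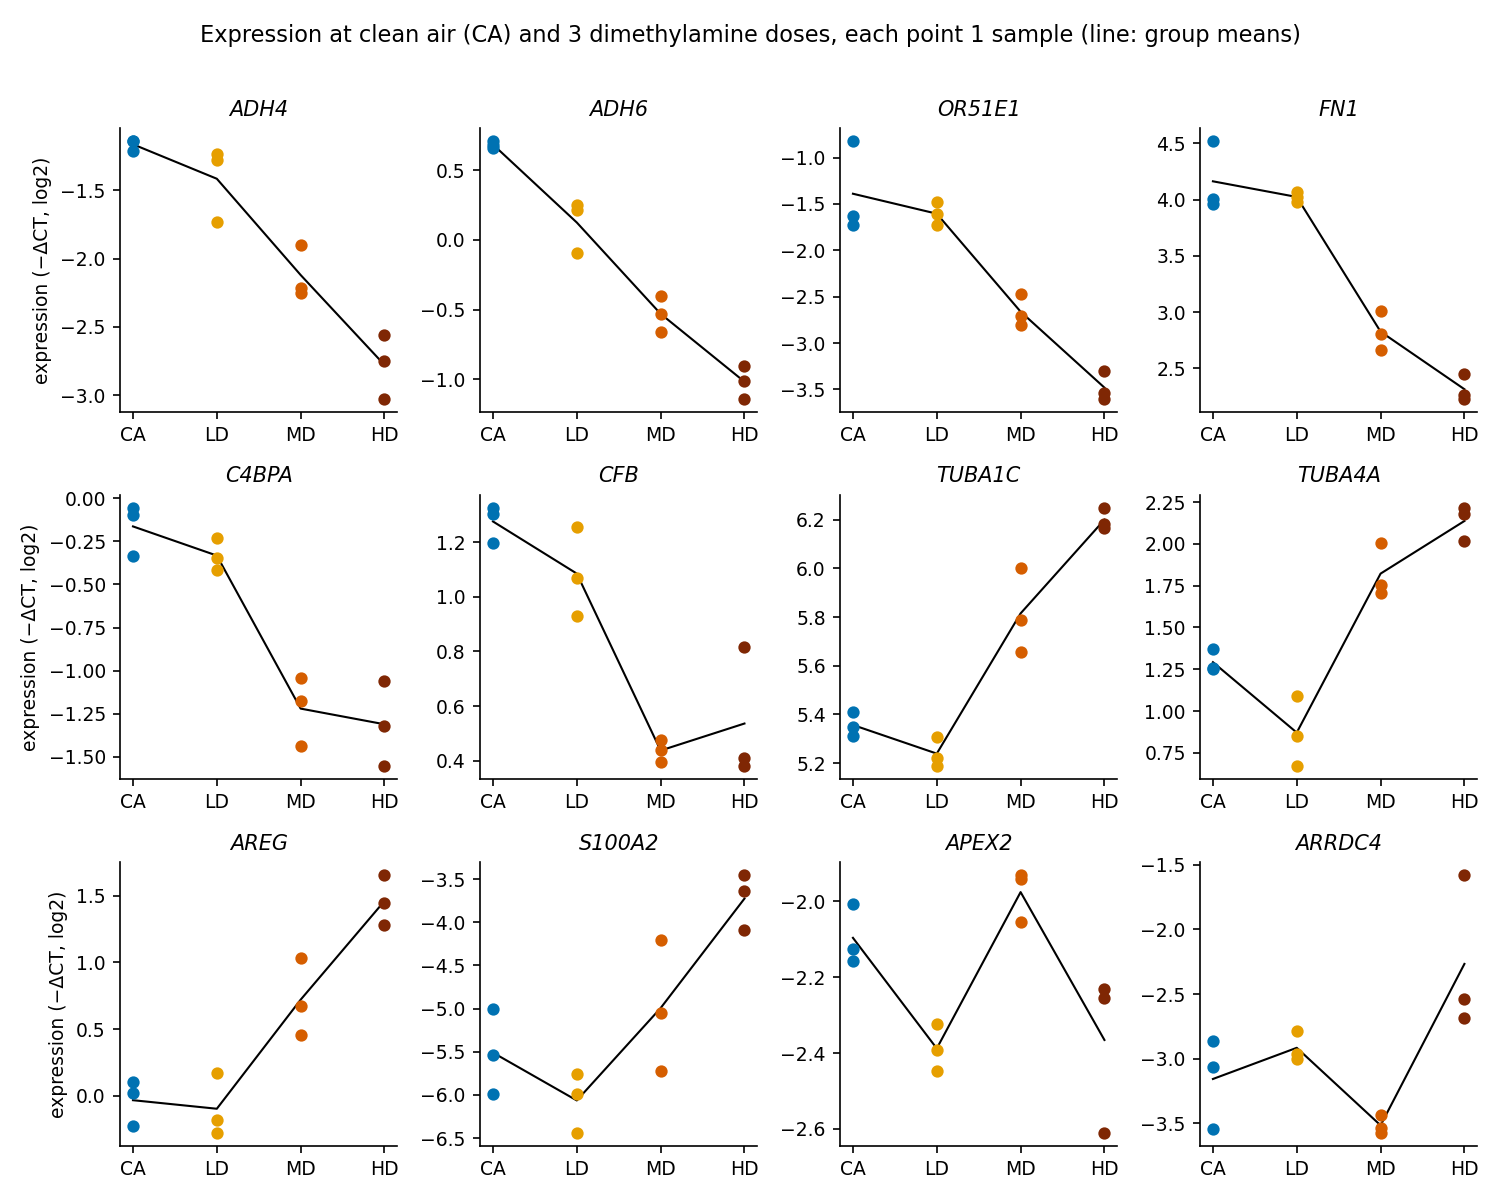
Expression (−ΔCT, log2) of 12 genes in the clean air samples and at the 3 doses, each point being 1 sample and the line joining the group means. C4BPA and CFB fell from LD to MD and differed by -0.09 and 0.10 from MD to HD, ADH4 and ADH6 fell and AREG rose at both of these steps, and the means of APEX2 and ARRDC4 turn at MD.

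The 2 steps were compared by a test of their difference. It took no account of the width of a step in dose, nor did the test below against clean air. The steps ran from 14.9 to 41.1 ppm and from 41.1 to 81.7 ppm. None of 284 genes (0%) passed an adjusted p under 0.05 for a step from LD to MD that differed from the step from MD to HD (limma), and 64 had an unadjusted p under 0.05. The smallest adjusted p was 0.062. Those with this value were CTNNAL1, APEX2, ZNF555, a zinc finger gene that differed by 0.21 ± 0.15 between MD and LD and rose by 1.48 from MD to HD, and ARRDC4, a glucose-responsive arrestin that differed by -0.60 ± 0.25 and then rose by 1.25. C4BPA and CFB differed by -0.09 and 0.10 from MD to HD, but the adjusted p for a difference from the lower step was 0.12 for both. Against the step from clean air to LD, 2 of 284 genes (0.704%) passed. TUBA4A was lower in LD than in CA by 0.42 and higher in MD than in LD by 0.95 (adjusted p = 0.0072, limma, for the difference of the steps), and POLD2, a subunit of DNA polymerase delta, was lower by 0.40 and then higher by 0.54 (adjusted p = 0.035). LD enters both of these steps with opposite signs, and neither gene passed with the plate as a term.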

How the data were processed

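The methods of the study name the RT2 first strand kit, customised RT2 profiler PCR arrays and a ViiA 7 instrument. Values were normalised to a pair of genes found with NormFinder. The first matrix deposited by the authors holds a score per well, the threshold cycle (CT), with "nd" where no fragment was found. The other matrix, also deposited by the authors, gives ΔCT on the log2 scale. These values equalled the CT minus the mean CT of GPN1 and TMEM184C within 8.6e-09 cycles, and their sign was turned here. A further table deposited by the authors holds fold changes against CA and was not used. Of the LD and MD wells, 7 marked nd had been filled by the authors and were treated as missing, and 6 above 35 had been set to 35 and were kept. The panel held 297 assays of 296 genes, and 10 genes gave no product. Of a pair of ACTA2 assays the first was used, and the SD of a single assay was 0.093 cycles.

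All 15 samples entered 1 limma model (limma 3.58.1, R 4.3.3) that had a mean for each group, the moderated form of the linear model that the methods name. Differences are given ± SE, tests were two-sided, adjusted by Benjamini-Hochberg over all genes tested (the normalisation genes included), and called at an adjusted p under 0.05. The plate was added as a term in a further fit, where CA and NEC carry the plate difference. The control shift came from the 6 CA and NEC samples. The fits were tested on simulated data that held no plate difference, so that test cannot tell how a plate difference affects the calls. All samples of a dose group shared 1 plate number, so p-values without the plate term do not separate dose from plate. The spread behind them was pooled over all groups. It is within a plate number for LD, MD and HD and between plates 1, 5 and 6 for CA and NEC. An array gives no read depth; 3 samples per group limit the precision.

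The members and gene lists (25 by role and 5 of cell type markers, the leukocyte and ciliated ones included) were chosen with earlier results of these data known. Named were the 12 largest rises and falls, up to 3 members per list by adjusted p, genes called with the plate term, those with the smallest p for a difference between steps, genes with undetected wells, the normalisation genes and those named in the study's text. Further members were named after their values were seen. Alternatives covered the plate, the replicate number, the samples fitted, the variance model, the normaliser, late and undetected wells and each sample left out. Figures were drawn with matplotlib 3.10.9.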

Additional observations from a re-analysis of the deposited data

How the results depend on the processing

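Of the alternatives, the plate mattered most. The 98 calls between MD and LD (69 higher, 29 lower, median 0.187) became 1 (0 higher, 1 lower, median 0.027) with the plate as a term, where DUSP6 turned to -0.150. The plate fit called 2 genes with panel mean scaling, 0 without MD replicate 3 and 0 with CA alone as the link between plates, settings chosen after seeing the data. The calls were 64 (44 higher) with unmoderated variances, 52 (30 higher) with GPN1 alone, and 22 (19 higher, 3 lower) without normaliser. GPN1 alone and TMEM184C alone gave higher to lower splits of 30 to 22 and 85 to 23. Panel mean scaling gave 45 lower genes and a median of 0.053. The cause was not tested.

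The replicate numbers are not known to pair LD with MD, and deviations of same-numbered samples correlated with r from -0.011 to 0.199. With the replicate number as a block over LD, MD and HD, 90 genes were called (64 higher, 26 lower), 83 of them among the 98, against 92 in the same samples without the block.

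Leaving out 1 sample gave 53 to 96 calls, with 36 to 61 higher and 17 to 36 lower. Without MD replicate 3, which the study set aside as an outlier in its sequencing data, 53 genes were called, all among the 98, and without LD replicate 2 there were 58. In all 6 such fits 47 genes were called. HD against MD gave 58 calls, 11 with the plate as a term and 25 to 69 with 1 sample left out. LD against CA gave 33, 17 and 2 to 31, and MD against CA 175, 147 and 136 to 168. The 2 step differences against LD minus CA became 0 with the plate as a term. With 1 sample left out, the steps from LD to MD and from MD to HD differed in 0 to 2 genes, and the steps from CA to LD and from LD to MD in 0 to 1.

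Late wells limit ADH1A, MT2A and TNFRSF9, whose CTs passed 35 in MD or LD.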
